A study of Mus musculus with 50 samples.

Results

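The effect of the ALIOS diet was examined within liver tumours of C3H/He mice given DEN (diethylnitrosamine, a liver carcinogen). Messenger RNA was sequenced from 13 such tumours, of 50 libraries in the series. The 8 tumours T15, T16 and T22 to T27 are labelled ALIOS diet with DEN, and the 5 tumours T17 to T21 control diet with DEN, and members were chosen by these labels alone. The ALIOS diet is rich in trans fat and is given with fructose in the drinking water, and the control diet is low in trans fat without the sugar. All mice were C3H/He, a strain in which liver tumours arise readily, and all tissue was taken at 48 weeks. For comparison, the same diets were set against each other in non-tumour liver, with 11 livers on ALIOS (N13 to N23) and 12 on control (N1 to N12). The livers carry no DEN label, so tissue and DEN differ together between the comparisons and cannot be told apart. The dose and timing of DEN, the hour of harvest and the animal behind each tumour are not stated, so the p-values measure the spread between these tumours.

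DEN is activated by pericentral cytochrome P450 enzymes, damages hepatocyte DNA and gives rise to hepatocellular tumours. Hepatocytes are zoned along the lobule: those around the central vein respond to beta-catenin and make glutamine from ammonia, while those around the portal tract make glucose and urea. Liver metabolism also follows a circadian clock, in which ARNTL with CLOCK or NPAS2 switches on the Per, Cry and Nr1d genes. The products of those genes switch ARNTL off again within the day, and feeding resets the cycle.

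The tumour libraries held 28727716 to 45751398 counts, with a mean of 35795020 ± 4896723 (SD, n = 8) on ALIOS and 33298007 ± 2471969 (SD, n = 5) on control (two-sided exact permutation test over 1287 arrangements, p = 0.34). All 13 tumours expressed hepatocyte genes, whose summed level was 227200 to 291000 CPM on control and 114600 to 327800 on ALIOS. CPM is a gene's count per 1000000 counts of its library, after TMM scaling. The fetal liver genes Afp and Gpc3, common markers of hepatocellular carcinoma, were above the highest non-tumour liver in every tumour, with T23 lowest at 18.8 CPM of Afp and 6.72 of Gpc3. T24 stood apart, at a median distance of 170 from the other 12 tumours over all genes, against 83.9 to 139 for the rest. T23 and T25 lay nearest to the mean liver profile, at 86.7 and 105 against 135 to 198 for the others. Values that T24 moved most are therefore also given without it.

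At an adjusted p under 0.05, 2 of 14944 genes were called between the diets in DEN tumours, or 0.0134%, both lower on ALIOS. An unadjusted p under 0.05 was reached by 1273 genes, or 8.52%, 681 higher and 592 lower on ALIOS, and without T24 by 1698 of 14814, or 11.5%, 822 higher and 876 lower. The groups did not overlap for 98 genes, or 0.656%, of which 48 were higher and 50 lower on ALIOS, and without T24 for 203, or 1.37%, 112 higher and 91 lower. With 1 tumour left out the number of calls ran from 0 (in 8 of 13 fits) to 19 (without T22). Without T24, 14 of 14814 genes were called, or 0.0945%, 7 in each direction, and both genes called with T24 were among them. The other tools called more, DESeq2 155 and limma voom with quality weights 118, of which 66 were shared, and Nmrk1 and Sik1 were among the DESeq2 calls. In non-tumour liver, with 23 libraries, 923 genes were called higher on ALIOS, or 6.73%, and 619 lower, or 4.51%, of 13723 tested.

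Nmrk1 encodes nicotinamide riboside kinase 1, which starts a salvage route to NAD, and lies at chr19:18631950-18652428 on the plus strand of GRCm38. Its level in the control tumours T17 to T21 was 32.6, 30.9, 36.8, 41.4 and 33.2 CPM. On ALIOS the lowest tumour stood at 8.74, the median at 12.7 and the highest at 19.8 CPM, so every ALIOS tumour was below every control tumour. Nmrk1 fell by 1.41 on the log2 scale (SE 0.183, adjusted p = 0.0342). In non-tumour liver the log2 change was 0.45 (adjusted p = 0.221), and the diet effects differed by -1.86 between tumour and liver (adjusted p = 0.00743).

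Sik1 encodes salt-inducible kinase 1, which holds the CREB coactivators of the CRTC family in the cytoplasm and lies at chr17:31844250-31855804 on the minus strand. The control tumours had 32.3, 33.2, 33.8, 36.9 and 28.3 CPM, and the ALIOS tumours ran from 14.5 through a median of 17.4 to 23.6 CPM, again without overlap. Sik1 fell by 0.85 on the log2 scale (SE 0.12, adjusted p = 0.0409), and its diet effect was lower than that in liver by 0.97 (adjusted p = 0.0253 for a difference of -0.97). In liver the change was 0.11 (adjusted p = 0.694). Both calls were close to the threshold. With 1 tumour left out at a time, Nmrk1 was called in 4 of 13 fits (without T22, T24, T25 or T26) and had an adjusted p of 0.0536 to 0.164 in the other 9. Sik1 was called in 2 (without T22 or T24), with 0.0536 to 0.195 in the other 11. The log2 changes stayed between -1.51 and -1.34 for Nmrk1 and between -0.92 and -0.82 for Sik1.

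**Figure D1:**
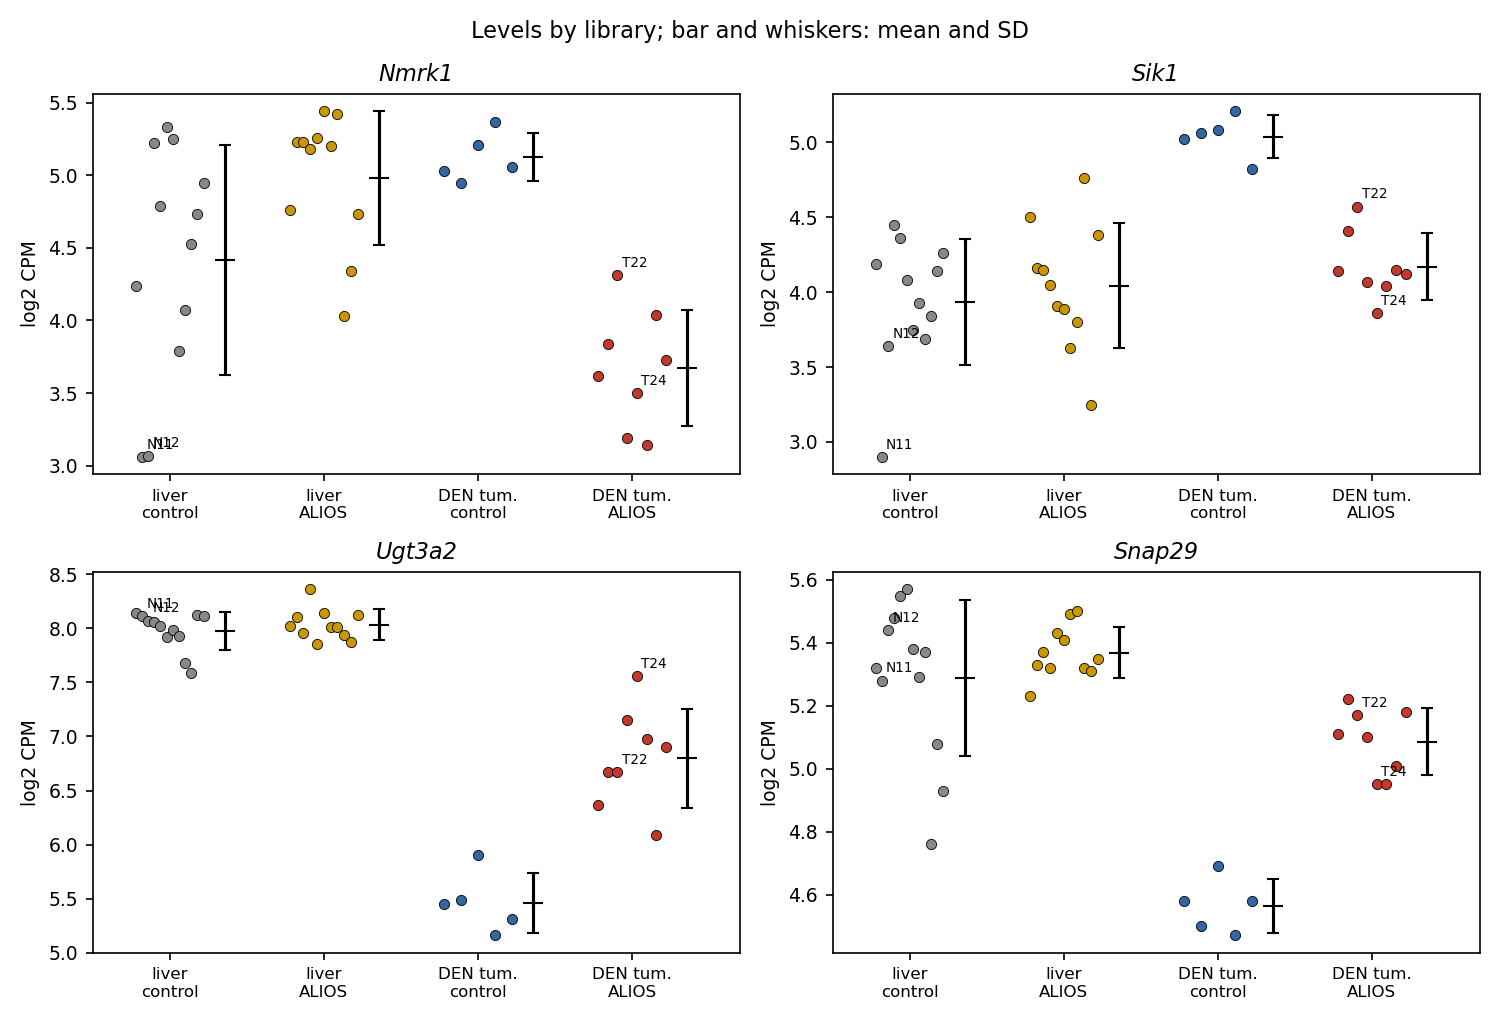
Levels of Nmrk1, Sik1, Ugt3a2 and Snap29 in each library as log2 CPM (y axis) by tissue and diet (x axis; DEN tum. is DEN tumour), a point per library, with the mean and SD beside each group. In all 4 panels the 8 ALIOS tumours and the 5 control tumours do not overlap, whereas the livers of the 2 diets do.

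The genes with the next smallest p-values did not pass the adjustment over all genes, and their values are given as measured. Ugt3a2, a UDP-glycosyltransferase gene, had 43.7, 44.8, 59.6, 35.8 and 39.5 CPM in the control tumours. ALIOS tumours had 68.2 at the lowest, 110 at the median and 189 at the highest, a log2 change of 1.39 (SE 0.228, adjusted p = 0.095). All 8 were thus above every control tumour, and the change differed from that in liver by 1.33 (adjusted p = 0.000934). Snap29, a SNARE protein of membrane fusion, had 23.8, 22.6, 25.7, 22 and 23.9 CPM on control and 30.8, 34.3 and 37.1 as the lowest, median and highest on ALIOS, a log2 change of 0.53 (SE 0.0882, adjusted p = 0.095). All 8 ALIOS tumours were again above every control tumour.

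Asap2, an activator of Arf GTPases, had a median of 6.67 CPM on ALIOS and 1.96 on control, and the neuronal calcium sensor Ncald 7.76 and 2.63. Mical2, which oxidises actin, had 29.3 and 15.6. In these 3 genes all 8 ALIOS tumours were above every control tumour. Nt5e, which makes adenosine outside the cell, ran from 20.8 to 96.5 CPM on ALIOS and from 7.21 to 21.8 on control, with T23 the lowest and the only ALIOS tumour within the control range. Nt5e was also called in non-tumour liver, where it rose by 1.10 on the log2 scale (adjusted p = 0.00744). Its log2 change in tumours was 1.88 (SE 0.376, adjusted p = 0.203).

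On the lower side, Gnat1, known as the transducin subunit of rod photoreceptors, had 18.4, 19.4, 20.9, 23 and 23 CPM on control. ALIOS tumours ran from 2.94 through 7.35 to 13 CPM, without overlap (log2 change -1.49, SE 0.25, adjusted p = 0.095). Coq10b, a coenzyme Q binding protein of mitochondria, lay between 48.8 and 53.8 CPM in all 5 control tumours and between 12.5 and 35.5 on ALIOS. Aifm2, which reduces coenzyme Q at the membrane and protects cells from lipid peroxidation, ran from 29.5 to 42.5 CPM on control and from 14.7 to 26.6 on ALIOS. The transcription factor gene Snai3 had a median of 2.48 CPM on control and 0.378 on ALIOS. Their adjusted p-values were 0.203, 0.131 and 0.095. For each of the 3 the diet effect in tumours differed from that in liver: by -1.12 for Coq10b (adjusted p = 0.034), -0.81 for Aifm2 (0.0214) and -2.72 for Snai3 (0.0223).

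Without T24, the 7 genes called lower on ALIOS included Gnat1, Sik1, Nmrk1, St3gal5, Slc12a4 and Tspan4, and the 7 called higher were Npas2, Ugt3a2, Snap29, Ncald, Tfpi2, Ugt3a1 and St5. The genes beyond the rule for naming (St3gal5, Slc12a4, Tspan4, Tfpi2, Ugt3a1, St5) were picked after their values were seen. St3gal5, which makes the ganglioside GM3, had 141, 150, 167, 164 and 172 CPM on control and 25.7, 77 and 111 as lowest, median and highest on ALIOS. It fell by 0.93 without T24 (adjusted p = 0.0329), and T24 itself was the lowest tumour. Tspan4, a tetraspanin of the cell membrane, had 108, 96.7, 145, 127 and 86 CPM on control. In ALIOS tumours it ran from 26.9 to 64.5 CPM except in T24, at 113, and fell by 1.27 without T24 (adjusted p = 0.033) against -1.03 with it (0.28).

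Many core clock genes had different levels on the diets, although edgeR called none over all 13 tumours. Npas2 was called without T24 and without T22, and Ciart without T22. Of 23 clock genes tested, 16 had an unadjusted p under 0.05, or 69.6%, beside 8.52% of all genes, with 4 higher and 12 lower on ALIOS. The median log2 change was -0.98, against 0.04 over all genes tested, and -1.13 without T24, when 18 genes had an unadjusted p under 0.05. The 4 higher genes were the activators Npas2, Arntl and Clock and the repressor Nfil3. Among the lower were the repressors Per1, Per2, Per3, Ciart, Bhlhe40 and Nr1d2 and the output factors Dbp, Tef and Hlf, with Noct and Wee1. DESeq2 called 5 of the 23 genes (Arntl, Bhlhe40, Npas2, Per1, Per2) and voom 6 (among them Ciart, Per1, Per2, Usp2 and Wee1). Clock, Nfil3, Per3, Dbp, Tef and Ciart are described beyond the rule for naming and were chosen after their values were seen.

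The promoters of these genes are shown because the clock proteins are known to act through short elements near the start of transcription. Promoters of 19 of the 24 listed genes were found in RefSeq for GRCm38.p6, as 250 bases before to 50 bases after the start. They were searched on both strands for the E-box CACGTG bound by ARNTL with CLOCK or NPAS2, the D-box TTATGTAA or TTACGTAA bound by DBP and NFIL3, and the ROR element TAGGTCA or TGGGTCA bound by ROR and NR1D proteins. No motif overlaps another in its letters. The E-box was in 5 of the 19 (7.15% of 32851 promoters), the D-box in 1 (1.06%) and the ROR element in 2 (6.45%). The matching stretches are in capitals in the sequences below, each read along the strand of its gene and given from 250 to 31 bases before the start, or as 26 bases around the match.
Ciart chr3:95882259-95882478, minus strand, 3 E-boxes: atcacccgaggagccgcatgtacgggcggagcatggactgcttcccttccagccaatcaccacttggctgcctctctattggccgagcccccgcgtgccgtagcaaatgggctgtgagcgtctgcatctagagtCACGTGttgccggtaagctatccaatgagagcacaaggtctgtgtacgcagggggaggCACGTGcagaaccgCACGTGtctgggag
Per1 chr11:69098699-69098918, plus strand, 1 E-box: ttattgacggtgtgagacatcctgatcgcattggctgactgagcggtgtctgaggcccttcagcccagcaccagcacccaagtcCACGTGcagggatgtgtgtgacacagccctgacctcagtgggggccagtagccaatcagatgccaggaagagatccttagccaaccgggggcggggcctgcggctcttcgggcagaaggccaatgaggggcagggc
Per3 chr4:151044696-151044915, minus strand, 2 D-boxes: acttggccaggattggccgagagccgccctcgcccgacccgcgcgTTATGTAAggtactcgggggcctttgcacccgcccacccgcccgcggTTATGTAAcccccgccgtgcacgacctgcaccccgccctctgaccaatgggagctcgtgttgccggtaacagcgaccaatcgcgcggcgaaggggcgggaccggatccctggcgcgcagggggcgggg
Arntl chr7:113207532-113207557, plus strand, ROR element: ggcagaaagTAGGTCAgggacggagg
Nfil3 chr13:52981035-52981060, minus strand, ROR element on the opposite strand: gctcggaacTGACCTActaacacaca
These matches describe the letters in the window and not binding in these tumours.

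Npas2, at chr1:39193731-39363236, had 0.161, 0.174, 0.129, 0.332 and 0.244 CPM in the control tumours and 0.578 at the lowest, 4.88 at the median and 18.3 at the highest on ALIOS. Every ALIOS tumour was above every control tumour, with T24 (0.578) and T22 (0.661) nearest to them. The log2 change was 5.01 (SE 0.898, adjusted p = 0.117), and without T24 Npas2 rose by 5.19 (adjusted p = 0.0329). Arntl, the partner of CLOCK and NPAS2, had 1.19, 0.811, 0.579, 0.634 and 2.39 CPM on control and 0.911, 12.4 and 32.1 as lowest, median and highest on ALIOS. The libraries T15, T16, T23, T25, T26 and T27 stood between 10.9 and 32.1 CPM, above every control tumour, and T22 (1.48) and T24 (0.911) stood within the control range. Arntl's log2 change was 3.68 (SE 0.814, adjusted p = 0.212).

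Per1, Ciart and Per3, all driven by the clock, had most of their high values on control. Per1, whose promoter holds the E-box shown, had 54.5, 57.3, 76.1, 100 and 39.8 CPM on control and 4.14, 13.8 and 40.8 as lowest, median and highest on ALIOS (log2 change -1.88, SE 0.503, adjusted p = 0.289). Ciart, with the 3 E-boxes, had 16.1, 14.7, 23.3, 28.9 and 12.8 CPM on control and 0.49, 1.1 and 18.5 on ALIOS (log2 change -2.29, SE 0.782, adjusted p = 0.398). In both genes 7 ALIOS tumours lay below every control tumour, and T22 alone lay within the control range. Per3, with the 2 D-boxes, ran from 64.5 to 136 CPM on control and from 5.41 through 16.1 to 96.1 on ALIOS, again with T22 highest.

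Dbp, an activator of D-box genes, had 154, 149, 245, 285 and 92.1 CPM on control and 5.96, 38.5 and 169 as lowest, median and highest on ALIOS. Its relative Tef ran from 163 to 237 CPM on control and from 17.5 to 196 on ALIOS, and T22 was the ALIOS tumour with most of both. Nfil3, the repressor at the same element, ran from 5.31 to 8.81 CPM on control and from 3.23 through 14.2 to 46.8 on ALIOS, with T22 lowest. Clock itself had a median of 44.2 CPM on ALIOS and 20.9 on control. Nr1d1 and Cry1, also targets of the cycle, had log2 changes of -0.09 and 0.08. The sources do not state the strand option of the counting, so reads of Arntl, Dbp, Tef, Bhlhe40 and Nr1d1 cannot be told apart from those of genes on the other strand that overlap them.

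In non-tumour liver no clock gene of 22 tested was called by edgeR, 0 were called by DESeq2 or voom, and 2 had an unadjusted p under 0.05. The list's median log2 change there was -0.04. The diet effect in tumours was above that in liver for Npas2 (by 7.34, adjusted p = 0.00743), Arntl (5.06, 0.0112) and Clock (1.60, 0.0253) and below it for Bhlhe40 (-1.27, 0.0426). Among the control livers, N11 and N12 stood away from the rest in clock genes. Their Arntl was 20 and 22.4 CPM against 0.775 to 2.07 in the other 10 control livers, and their Ciart 1.16 and 0.115 against 8.46 to 34.1. Nmrk1 was also lowest in these livers among all livers. In log2 CPM, N11 and N12 had 3.08 and 3.65 of Asap2, against at most 1.99 in the other 10 control livers. Mical2 was 5.17 and 5.31 against at most 4.75. Coq10b was 4.09 and 4.57 against at least 5.71, and Aifm2 4 and 4.07 against at least 4.68. These are the directions of the ALIOS tumours, whereas Ugt3a2 and Snap29 lay within the range of the other 10. The differences of the diet effects without N11 and N12 were 4.66 for Npas2 (adjusted p = 0.0147) and 3.23 for Arntl (0.0147). They were 1.26 for Clock (0.0404) and -1.11 for Bhlhe40 (0.0533). The hour of harvest is not stated, and its part in the clock genes was not tested.

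**Figure D2:**
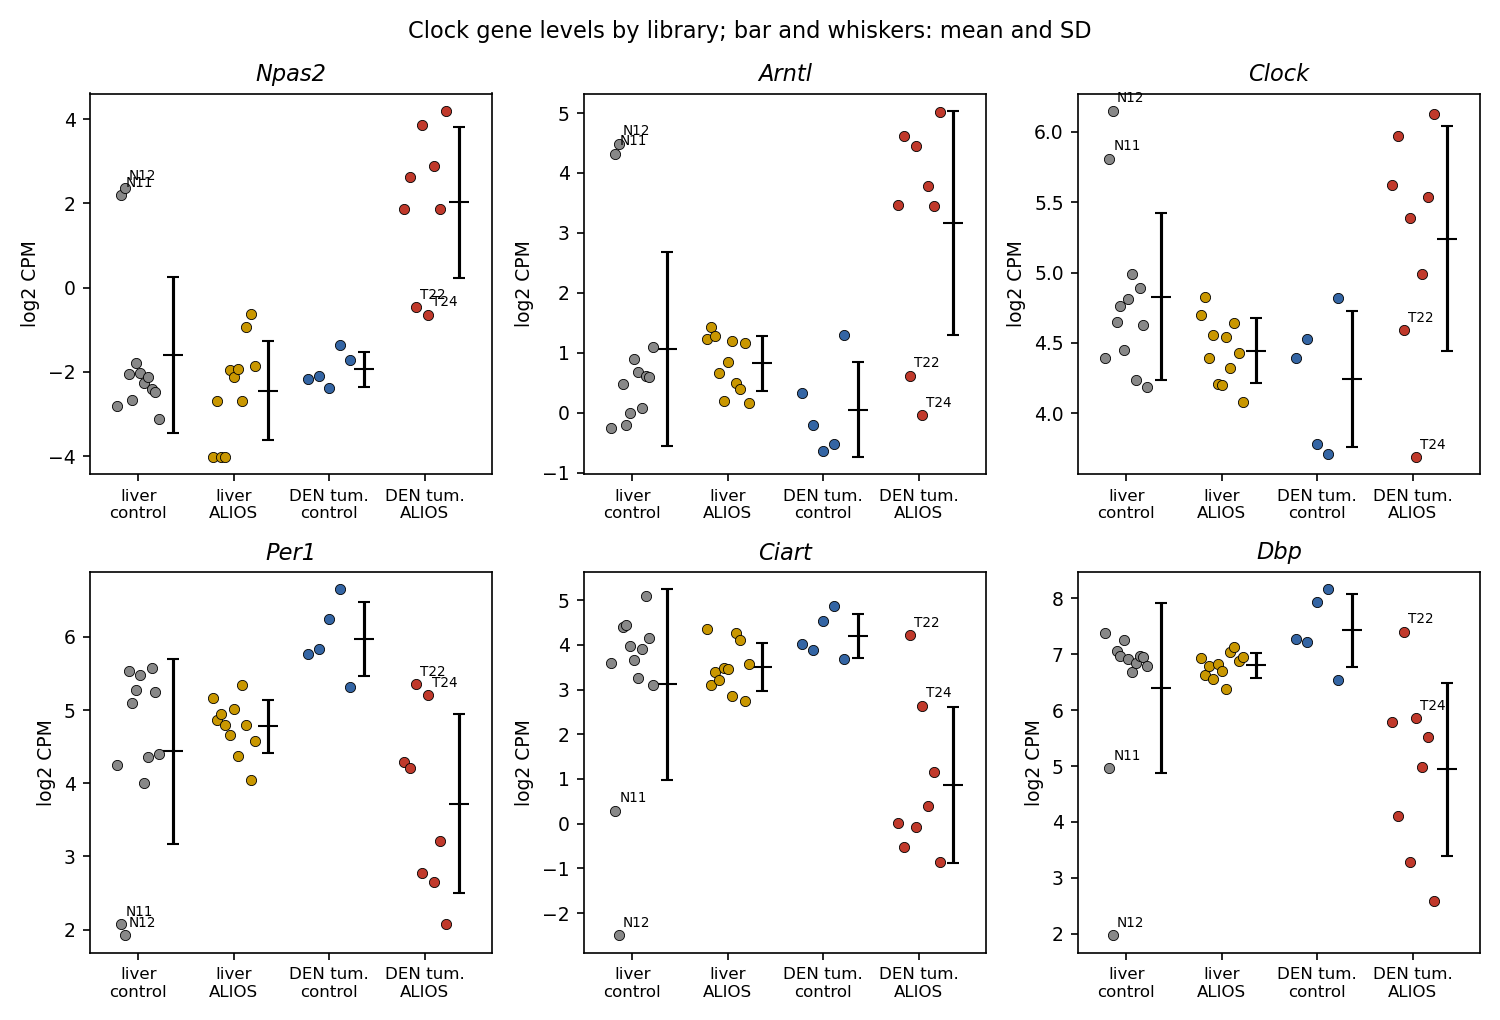
Levels of 6 clock genes in each library as log2 CPM (y axis) by tissue and diet (x axis; DEN tum. is DEN tumour), a point per library, with the mean and SD beside each group. Npas2, Arntl and Clock are high, and Per1, Ciart and Dbp low, in most ALIOS tumours, while T22 and T24, and the control livers N11 and N12, stand away from their groups in several panels.

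Genes of pericentral hepatocytes and of beta-catenin were higher on ALIOS in a subset of the tumours. All 24 tested had a positive log2 change, beside 8383 of all 14944 genes. Of the 24, 12, or 50%, had an unadjusted p under 0.05, beside 8.52% of all genes. None was called by edgeR, DESeq2 or voom. The list's median was 2.58 over the 13 tumours and 1.28 without T24. Without T24, 5 genes, or 20.8%, had an unadjusted p under 0.05, beside 11.5% of all genes. The summed level was 962, 794, 2515, 1542 and 1253 CPM in the control tumours. In the ALIOS tumours it was 33010 in T24, 7826 in T25, 5594 in T23 and 3133 in T22, and from 822 to 1264 in T15, T16, T26 and T27. Thus 4 ALIOS tumours were above every control tumour and 4 were within the control range, whereas all 23 livers lay between 7009 and 13490 CPM. Counted by gene, T22 had 16 of the 24 above every control tumour, T23 18, T24 22 and T25 20, and the other 4 had 1 to 5.

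Glul, glutamine synthetase, the classical target of beta-catenin around the central vein, lies at chr1:153899944-153909723. It had 41.8, 33.1, 150, 118 and 82.5 CPM on control, and on ALIOS 23.9 at the lowest, 314 at the median and 17300 at the highest. T24 held 17300 CPM, T25 2320, T23 743 and T22 547, against 503 to 1270 in the livers. The log2 change was 4.98 (SE 1.69, adjusted p = 0.397), and 2.69 without T24. Oat, ornithine aminotransferase of the same zone, ran from 3.19 to 29.4 CPM on control. It was 2290 in T24, 269 in T23, 198 in T25 and 128 in T22, and 4.34 to 15.7 in the remaining ALIOS tumours. The same 4 tumours held the high values.

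Axin2 and Nkd1, feedback inhibitors of Wnt signalling, were also highest in these 4 tumours. Axin2 ran from 0.0579 to 1.54 CPM on control and was 102 in T24, 12.7 in T25, 9.44 in T23 and 2.67 in T22. Nkd1 was at most 1.09 CPM on control and 293 in T24, where the next ALIOS tumour had 7.03. In log2 CPM the livers ran from 1.23 to 2.44 for Axin2 and from 0.72 to 2.11 for Nkd1. T22 lay within both liver ranges, at 1.45 and 1.05. T23 (3.25 and 2.83) and T25 (3.67 and 2.54) lay above them, and T24 farthest, at 6.68 and 8.19. The log2 changes of Axin2 and Nkd1 were 4.39 (SE 1.49) and 5.53 (SE 1.9), and 2.35 and 1.57 without T24. In liver the list's median was 0.04, with 2 genes called higher and 3 lower. The difference of the diet effects was called for 7 of 26 genes, beside 2.27% of all genes, all 7 with the larger effect in tumours. Among them were Glul (4.81, adjusted p = 0.0253), Oat (4.74, 0.0218), Axin2 (4.24, 0.0287) and Nkd1 (5.49, 0.0253). The difference was called for 2 without T24, when Glul (2.51, adjusted p = 0.0558), Axin2 (2.19, 0.0616) and Nkd1 (1.52, 0.104) were not called. Periportal genes had a median of -0.19 over 22 tested, none with an unadjusted p under 0.05, and of -0.01 without T24, when 3 were lower at that level. The median hides differences between tumours. In log2 CPM, Cyp2f2 was 8.67 in T23, 9.14 in T25 and -1.7 in T24, against 4.39 to 7.08 on control. Etnppl was 5.74, 5.71 and -2.93 in the same tumours, against 0.32 to 3.95. Hsd17b13 went the other way in T23 and T25, at 7.5 and 7.23, and was 4.42 in T24, against 7.9 to 8.31. Arg1, the urea cycle enzyme arginase, lay between 950 and 1110 CPM in all control tumours and at 54.3, 639 and 947 as lowest, median and highest on ALIOS, the lowest being T24 (log2 change -0.77, adjusted p = 0.685).

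**Figure D3:**
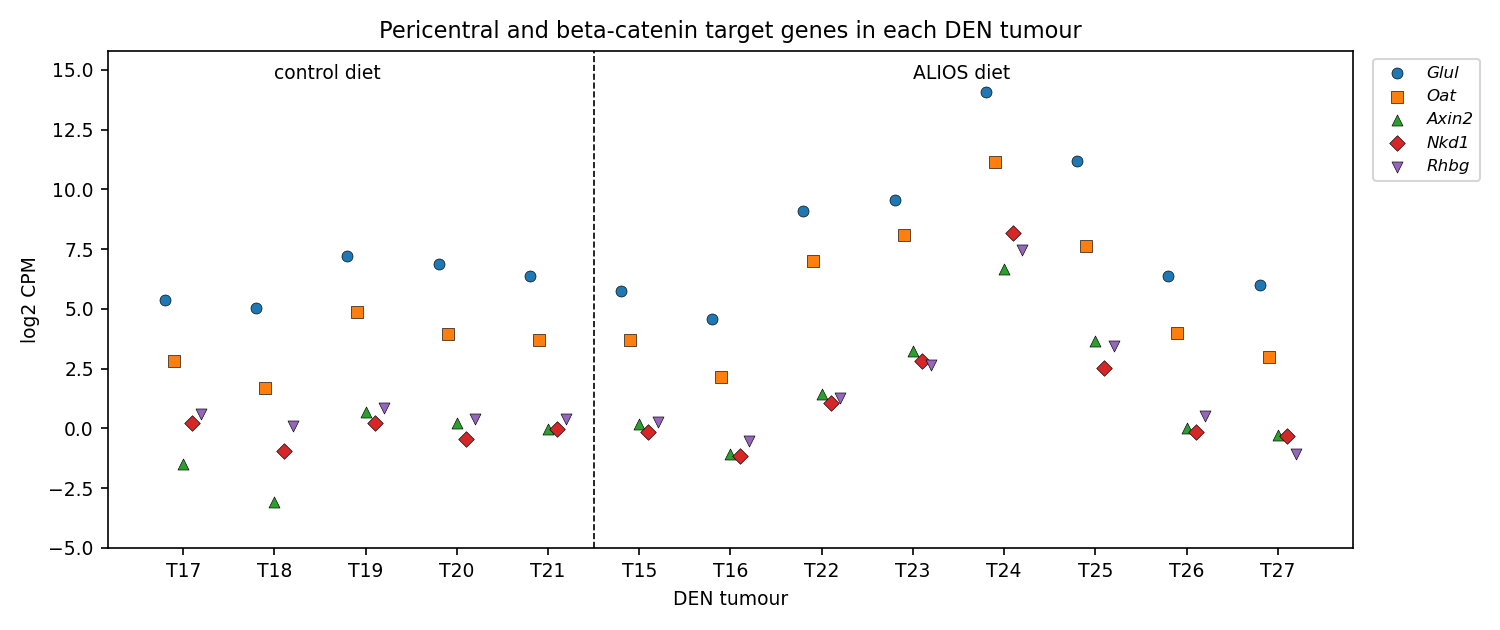
Levels of Glul, Oat, Axin2, Nkd1 and Rhbg as log2 CPM (y axis) in each of the 13 DEN tumours (x axis), with the control diet left and ALIOS right of the dashed line. T22, T23, T24 and T25 are above every control tumour in all 5 genes, and T15, T16, T26 and T27 lie among or near the control tumours.

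Among genes of drug, bile acid and lipid metabolism, edgeR called none in the tumours. DESeq2 called Cyp2c38, Cyp2c39, Por, Cyp4a14, Pdk4 and Hsd3b7, and voom Angptl4, Insig2, Acat2, Gstm1, Abcb11 and Hsd3b7. Of 39 xenobiotic cytochrome P450 genes, 6 were higher and 2 lower at an unadjusted p under 0.05, with a median of 0.42, and without T24 6 were higher and 6 lower, with a median of 0.30. The shares were 20.5% and 30.8%. Over all genes they were 8.52%, and 11.5% without T24, which holds for the lists that follow as well. Cyp2c39 had 0.29, 0.203, 2.28, 0.634 and 0.489 CPM on control and 0.287, 10.5 and 274 as lowest, median and highest on ALIOS, with T24 and T23 highest (log2 change 5.92, SE 1.64, adjusted p = 0.298). Cyp2a4, a steroid hydroxylase higher in female liver, had 5720, 5910, 4830, 5980 and 4360 CPM on control and 215, 1860 and 4510 on ALIOS. Its log2 change was -1.51 in tumours (SE 0.514, adjusted p = 0.398), whereas it rose by 3.77 in liver (adjusted p = 0.0047), and the diet effects differed by -5.28 (adjusted p = 0.00918). Both belong to families of near-identical copies, so reads may have been split among them.

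Of 24 lipid droplet and PPAR-gamma genes, 3 were higher and 1 lower at an unadjusted p under 0.05 in tumours, with a median of 0.24 (3 higher, 3 lower and 0.09 without T24), whereas 10 of 23 were called in liver, all higher. Cidec, which enlarges lipid droplets, had 40.7, 41.1, 35.3, 44.9 and 22.2 CPM in the control tumours and 4.81, 25.1 and 42.8 as lowest, median and highest on ALIOS (log2 change -0.77, SE 0.419, adjusted p = 0.684). In liver Cidec rose by 3.16 on the log2 scale (adjusted p = 0.000876), with 0.33 to 1.41 CPM in the control livers and 0.608 to 24.6 on ALIOS. Of the control tumours, all but T21 were above the highest ALIOS liver. The diet effects differed by -3.94 (adjusted p = 0.00629), and by -3.84 without T24 (0.00334). Pparg, the nuclear receptor of fat storage, had 0.483 to 2.11 CPM on control and 0.611 to 4.61 on ALIOS in tumours, rose by 4.04 in liver (adjusted p = 0.000557), and differed by -3.13 (adjusted p = 0.0345, and 0.0657 without N11 and N12).

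Of 25 genes of bile acid synthesis and transport, 3 were higher and 1 lower at an unadjusted p under 0.05, or 16%, with a median of 0.39. Without T24 the share was 12%, near the 11.5% of all genes, with a median of 0.36. Hsd3b7, an enzyme that modifies the sterol ring on the way to bile acids, had 85.6, 94.9, 132, 126 and 114 CPM on control and 145, 219 and 494 as lowest, median and highest on ALIOS. All 8 ALIOS tumours were above every control tumour (log2 change 1.27, SE 0.307, adjusted p = 0.235). The diet effect was above that in liver by 1.54 (adjusted p = 0.00629), and by 1.38 without N11 and N12 (0.0122). In log2 CPM, Hsd3b7 was 9.21 and 9.02 in the control livers N11 and N12, against at most 8.65 in the other control livers. Abcb11, the bile salt export pump, ran from 110 to 178 CPM on control and from 121 to 418 on ALIOS, with 6 of 8 above every control tumour. Its difference from liver was 1.02 (adjusted p = 0.0358), and 0.88 without N11 and N12 (0.0698). The 37 PPAR-alpha and fatty acid oxidation genes had a median of -0.02, with 5 higher and 2 lower at an unadjusted p under 0.05 (18.9%, and 16.2% without T24). Among them Pdk4, which restrains glucose oxidation, had 9.21, 7.07, 5.31, 6.19 and 5.59 CPM on control and 7.15, 17.5 and 52.6 on ALIOS, with T22 alone among the control values (log2 change 1.68, SE 0.416, adjusted p = 0.238). Pdk4 was also high in N11 and N12, at 4.7 and 3.57 in log2 CPM, against at most 2.64 in the other control livers.

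De novo lipogenesis genes had a median of 0.09 over 27, with 3 higher and 1 lower at an unadjusted p under 0.05, and cholesterol genes -0.08 over 32, with 1 lower. Without T24, 6 lipogenesis genes were higher and 2 lower at that level, with a median of 0.19. Scd1, stearoyl-CoA desaturase, had 7850, 12800, 10000, 8280 and 11500 CPM on control and 2690, 19200 and 29000 as lowest, median and highest on ALIOS. T24 was the only ALIOS tumour below 13400, and the log2 change was 0.86 with it (adjusted p = 0.619) and 1.03 without it (0.105). The glutathione and NRF2 list had a median of 0.15 over 40, fructose and glycolysis 0.06 over 39, and urea cycle and amino acid catabolism 0.19 over 36. In these 3 lists 4, 7 and 4 genes had an unadjusted p under 0.05, shares of 10%, 17.9% and 11.1%. Without T24 the medians were -0.05, -0.01 and 0.32 and the shares 22.5%, 23.1% and 30.6%, beside 11.5% of all genes.

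Cell cycle genes lay mostly on the higher side on ALIOS in both tissues. Of 60 proliferation genes, 45 had a positive log2 change, beside 8383 of all 14944 genes. At an unadjusted p under 0.05, 13 were higher and 2 lower, or 25% in all, beside 8.52% of all genes. None was called by edgeR, DESeq2 or voom. Without T24, 16 were higher and 5 lower at that level, or 35%, beside 11.5% of all genes. The median was 0.72 in tumours, 0.76 without T24 and 0.68 in liver, where 16 of 42 were called higher. Mki67, the usual marker of dividing cells, had 12.2, 9.82, 9.42, 15.2 and 15.2 CPM on control and 4.91, 21.9 and 55.3 as lowest, median and highest on ALIOS. T15, T16, T24, T26 and T27 were above every control tumour and T23 was below (log2 change 1.02, SE 0.455, adjusted p = 0.571). Mki67 rose by 1.69 in liver (adjusted p = 0.00831), where the highest value was 10.4 CPM. Plk1, a mitotic kinase, had a median of 3.25 CPM on ALIOS and 1.06 on control, with 5 tumours above every control tumour.

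Genes used to recognise liver tumours had a median of 0.19 over 30. At an unadjusted p under 0.05, 3 were higher, or 10%, near the 8.52% of all genes. Without T24, 1 was higher, or 3.33%, beside 11.5% of all genes. Afp had 501, 242, 386, 561 and 45 CPM on control and 18.8, 358 and 2550 as lowest, median and highest on ALIOS, from T23 to T24, and its log2 change was 0.85 (adjusted p = 0.875) and 0 without T24. Gpc3 had a median of 219 CPM on ALIOS and 237 on control. Igdcc4, also called Nope, had 80.1, 89.6, 65.6, 101 and 48.3 CPM on control and 2.47, 45 and 65.9 on ALIOS (log2 change -1.01, adjusted p = 0.698), with T23, T24 and T25 lowest at 2.47, 13.3 and 10.6. These 3 tumours were also high in Glul. T22, high in Glul as well, had the most Igdcc4 of the ALIOS tumours, at 65.9 CPM, within the control range. Genes of MAPK output had a median of -0.25 over 35, with 3 lower at an unadjusted p under 0.05 (6 lower and 1 higher without T24), and p53 targets -0.17 over 28, with 1 higher. Etv4, an ETS factor induced by MAPK, was 2.98 to 6.24 CPM in 4 control tumours and 0.342 in T21, and 0.378 to 2.03 on ALIOS. Its difference from liver was -2.46 (adjusted p = 0.0341, and 0.0544 without N11 and N12).

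No gene of the macrophage, lymphocyte, neutrophil or interferon lists was called in the tumours by edgeR, while DESeq2 called Jchain and Gbp6, and voom none of them. In bulk tissue, fewer cells of a type and less RNA per cell cannot be told apart. Macrophage genes had a summed level of 1283 to 2469 CPM on control and 1475 to 2839 on ALIOS. Of 38 tested, 1 was higher at an unadjusted p under 0.05, with a median of 0.40, or 0.10 without T24 (2 lower at that level), while 26 of 37 were called higher in liver, with a median of 0.87. Cd68, a lysosomal marker of macrophages, had 21.6, 6.2, 9.2, 4.68 and 10.3 CPM on control and 4.21, 9.69 and 56.2 as lowest, median and highest on ALIOS, the highest being T24 (log2 change 0.52, adjusted p = 0.9, and -0.21 without T24). Trem2, a lipid receptor of macrophages, was at most 1.6 CPM on ALIOS except in T24, at 14.1, and its log2 change was 0.34 with T24 and -1.36 without. The difference of its diet effect from that in liver was called only without T24 (-3.18, adjusted p = 0.0166, against -1.47 and 0.467 with it). Cd44 and Cd9 had log2 changes of 1.70 (adjusted p = 0.601, and 0.48 without T24) and 0.38 (0.779), and Tnf and Nos2, both under 1.1 CPM in the ALIOS tumours, 0.15 and 0.22.

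Lymphocyte and NK genes had a median of 0.67 over 38, or 0.38 without T24, with 2 higher and 3 lower at an unadjusted p under 0.05. Among the lower ones were plasma cell genes. Jchain, which joins antibody units, had 39.1, 15.2, 15.2, 3.59 and 56.8 CPM on control and 1.2, 3.86 and 11 on ALIOS, and the groups overlapped through T20, at 3.59 (log2 change -2.58, SE 0.59, adjusted p = 0.212). The antibody light chain genes Igkc and Igkv6-15 had log2 changes of -1.93 and -3.40, and antibody genes of one family share sequence. The diet effect differed from that in liver by -2.40 for Jchain (adjusted p = 0.0352, and 0.0665 without N11 and N12) and -2.96 for Igkv6-15 (0.0253). Of 44 interferon-stimulated genes, 40 had a positive log2 change, beside 8383 of all 14944 genes, with a median of 0.30. An unadjusted p under 0.05 was reached by 7, all higher, or 15.9%, beside 8.52% of all genes. Without T24 the share was again 15.9%, beside 11.5% of all genes, with a median of 0.26. Gbp6, an interferon-induced GTPase, had 1.22, 1.25, 0.675, 0.996 and 0.66 CPM on control and 1.24, 2.32 and 4.92 on ALIOS (log2 change 1.37, SE 0.349, adjusted p = 0.256).

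Matrix and stellate cell genes had a median of -0.05 over 51, none with an unadjusted p under 0.05, and of -0.37 without T24, when 7 were lower at that level and 7 of the 51 were positive. In liver 12 of 47 were called higher, with a median of 0.56. Col1a1, the main chain of type I collagen, had 105, 9.36, 20.4, 19.2 and 19.3 CPM on control and 2.32, 11.1 and 468 as lowest, median and highest on ALIOS, the highest being T24. Its log2 change was 0.94 (adjusted p = 0.916) and -1.92 without T24, when its difference from liver was -3.63 (adjusted p = 0.028). The median was -0.02 for endothelial genes over 28 tested, 0.04 for cholangiocyte genes over 15 and 0.61 for neutrophil genes over 7 (0.19 without T24). Hepatocyte genes had a median of -0.19 over 24, or -0.02 without T24, with 3 lower at an unadjusted p under 0.05. The lists of the acute phase and complement (40 tested), inflammation and NF-kB (45), stress responses (35) and the growth hormone axis (39) had medians of -0.15, 0.15, 0.11 and 0.17. Genes of other tissues were low, with summed levels on control and ALIOS of 5.08 to 18.6 and 0.333 to 17.4 CPM for kidney, 50.9 to 72.7 and 32.8 to 188 for pancreas, 60.2 to 196 and 29.7 to 455 for erythroid cells and 289 to 904 and 108 to 1441 for fat. Mt1, a metal-binding protein, had 115, 166, 113, 197 and 21.4 CPM on control and 21, 26.1 and 66.4 on ALIOS, with T21 alone among the ALIOS values (log2 change -1.79, SE 0.431, adjusted p = 0.235).

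**Figure D4:**
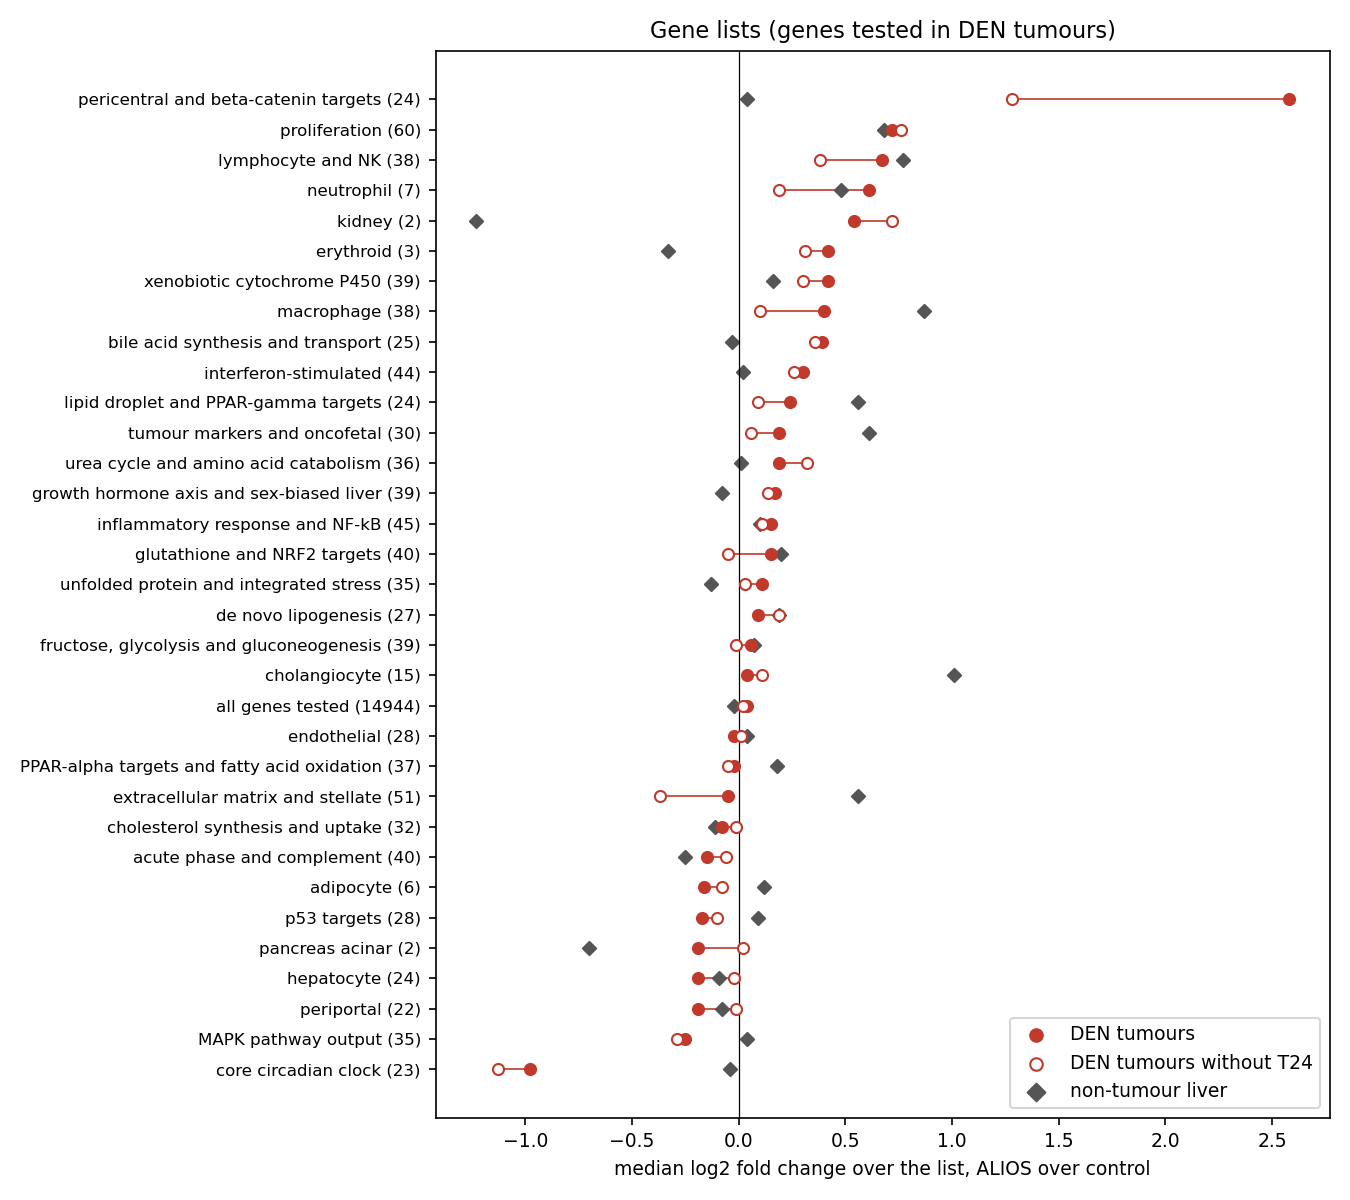
Median log2 fold change of ALIOS over control (x axis) for each gene list (y axis, with the number of genes tested in DEN tumours), for all 13 tumours, for the tumours without T24 and for non-tumour liver. The clock list (-0.98) and the pericentral list (2.58, or 1.28 without T24) lie, among the values of DEN tumours, farthest from the median of all genes (0.04), and the macrophage and cholangiocyte lists are higher in liver than in tumours.

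The direction of the diet effect in tumours was then set beside that in non-tumour liver. Of 13506 genes tested in both, 51% had the same sign, and 46.8% without T24. Of the 904 genes called higher in liver, 579, or 64%, were also positive in tumours, where 57.1% of all genes were positive, but without T24 the share was 51.9%. Among the 604 genes called lower in liver, 278, or 46%, were also negative in tumours, and 39.6% without T24. These shares stand beside a lean of all genes to the positive side. In tumours 7706 of the 13506 genes were positive, and without T24 7880 of all 14814 tested. Both genes called in tumours, Nmrk1 and Sik1, had the opposite sign in liver, and of the 14 called without T24 and tested in liver, 7 of 13 had the same sign. The share of liver calls with the same direction therefore rested partly on T24.

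The diet effects differed between tumour and liver for 354 of 15606 genes, or 2.27%, with 162 higher and 192 lower in tumours. Of these, 313 were tested in both tissues and 281 had opposite signs, 152 of them lower on ALIOS in tumours and higher in liver, and 129 the reverse. Picking genes by the size of this difference favours opposite signs, so the 281 are not a separate result. Over all 13506 genes tested in both, 51% had the same sign. In liver alone 123 of the 354 were called. Onecut2, a hepatocyte and bile duct transcription factor, had 12.8, 6.66, 24.1, 6.4 and 14.7 CPM in the control tumours and 16.9, 52.2 and 95.9 as lowest, median and highest on ALIOS, with T24 and T26 among the control values. Its difference was 2.31 (adjusted p = 0.00629). Trim2, a ubiquitin ligase, ran from 20.5 to 26.8 CPM on control and from 29.5 to 61.4 on ALIOS in tumours, without overlap. In liver Trim2 fell by 0.56 on the log2 scale (adjusted p = 0.022), but its change without N11 and N12 was -0.35 and not called (0.0562). Its difference was 1.47 (adjusted p = 0.00629).

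In the other direction, Tmem86a, which hydrolyses plasmalogen lipids, had 81, 106, 105, 129 and 50 CPM in the control tumours and 24.7, 66.4 and 121 as lowest, median and highest on ALIOS. It rose by 1.27 in liver (adjusted p = 5e-05), from a range of 9.58 to 23.4 CPM on control to 23.5 to 55.6 on ALIOS, so that the livers of the 2 diets did not overlap. The difference was -1.77 (adjusted p = 0.00629). Far2, a fatty acyl-CoA reductase, had 0.934, 1.04, 0.965, 2.54 and 0.122 CPM on control and 0.0701, 0.178 and 0.39 on ALIOS, with a difference of -3.90 (adjusted p = 0.00629). For Cidec, Cyp2a4 and Tmem86a, the control tumours already lay above the control livers. Far2, Aifm2, Coq10b, Snap29, Asap2, Ncald, Glul, Axin2, Cyp2a4, Hsd3b7 and Tspan4 also have exons overlapped by another gene. So do Abcb11, Slc12a4, St5, Plk1, Cd9, Mt2, Cyp2f2 and Cyp2c55. Rhbg and Gbp6 are each overlapped by a protein-coding gene on the same strand.

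**Figure D5:**
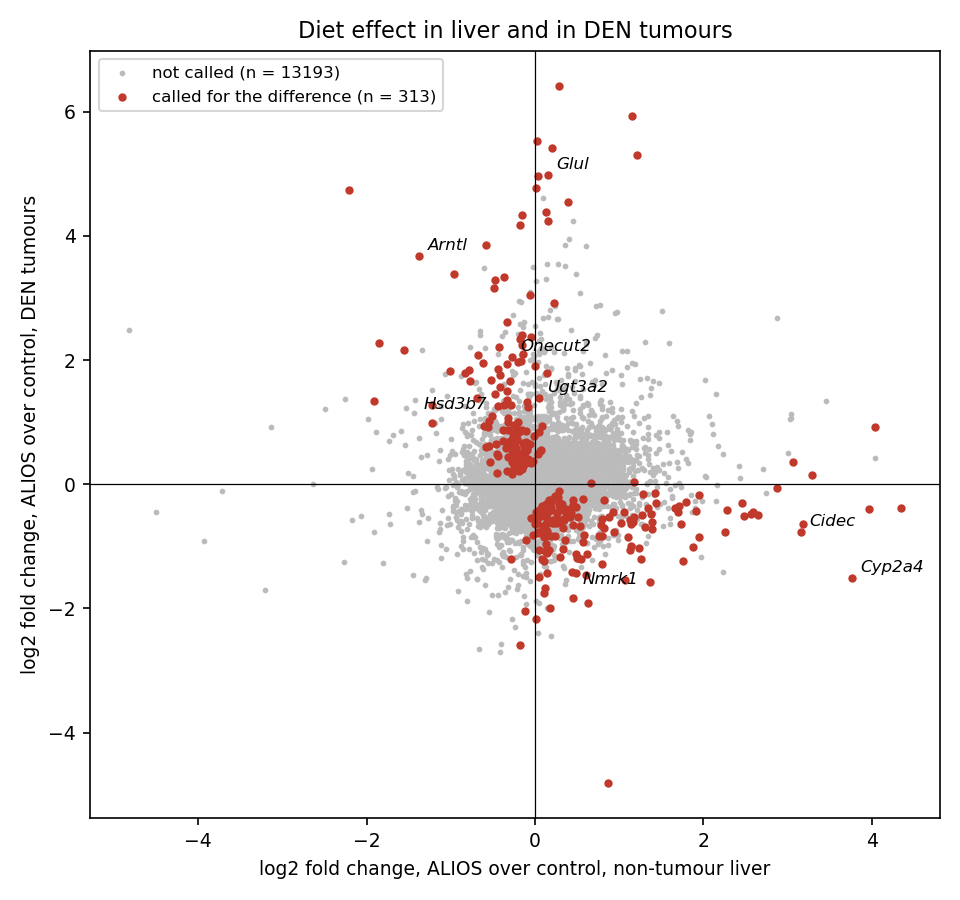
Log2 fold change of ALIOS over control in DEN tumours (y axis) against that in non-tumour liver (x axis), a point per gene tested in both, with the 313 genes whose diet effects differ in red. Most red points (281) lie in the upper left and lower right of the plot, where the signs are opposite, which picking genes by their difference favours.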

How the data were processed

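The authors deposited 1 table of raw counts per gene, with a column for each of 50 libraries. Stranded mRNA libraries were mapped to mm10 with STAR and counted on Gencode M6 exons with HTSeq; versions and the strand option are not stated. Groups came from the labels. Genes were filtered with filterByExpr, scaled with TMM and tested with the quasi-likelihood test of edgeR 4.0.16 in R 4.3.3, without covariates, within the groups compared. Benjamini-Hochberg adjusted p-values under 0.05 were calls. Differences of the diet effects were interaction contrasts over 36 libraries. CPM were TMM-scaled over those libraries. Alternatives included DESeq2 1.42.0, limma 3.58.1 (voom with quality weights) and leaving out each tumour. The pipeline was tested on simulated data. Genes were named by a rule: those the study measured, those with the smallest p in each direction, in each list and for the difference. The comparison and the 32 gene lists were chosen with earlier results of these data known. Gene positions are from Gencode M21. No pair of tumour libraries agreed within sampling noise. The spread between tumours includes the counting error, which is largest for genes near or under 1 CPM. Some genes among the calls are not reported here.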

Additional observations from a re-analysis of the deposited data

Results flagged for a closer look

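Of 164 combinations of a named gene and a diet group of tumours, 21 had 1 library far outside the rest by Dixon's criterion. T24 was that library in 14 of the 21. The criterion flags about 1 in 20 by chance, but not for genes picked by their values. St3gal5, Slc12a4, Tfpi2, Ugt3a1 and St5, flagged here for T24, were among the genes called without T24 and picked after their values were seen. These counts therefore do not measure how often T24 stands apart. T24 was highest for Nkd1 (293 CPM), Cyp4a10 (510), Cd44 (95.1), Trem2 (14.1), Col1a1 (468), Gzma (4.07), Mt2 (55.2) and Slc12a4 (40.1), and lowest for Scd1 (2690), Arg1 (54.3), St3gal5 (25.7), Tfpi2 (17.6), Ugt3a1 (2.72) and St5 (6.66). T23 was lowest for Afp (18.8 CPM) and Gpc3 (6.72), T25 lowest for Nos2 (0.0306) and Pparg (0.611), and T21 among the control tumours lowest for Etv4 (0.342), Mt1 (21.4) and Slc12a4 (28.6).

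The diet effect differed between DEN tumours and non-tumour liver, by the interaction test, for 40 of the 82 genes examined in detail. Many of the 82 were picked by their p-values in these data, some for this difference, so the choice raises this share. Over all genes the count was 354 of 15606, or 2.27%. The log2 difference, tumour minus liver, was positive for the clock genes Npas2 (7.34), Arntl (5.06) and Clock (1.60), the pericentral genes Glul (4.81), Axin2 (4.24), Oat (4.74), Nkd1 (5.49) and Rhbg (4.07), the P450 genes Cyp2c39 (4.75), Cyp2c38 (4.07), Cyp2c55 (4.14) and Cyp4a14 (5.20), and the bile acid genes Hsd3b7 (1.54) and Abcb11 (1.02). It was also positive for Ugt3a2 (1.33), Snap29 (0.47), Asap2 (2.62), Ncald (1.65), Mical2 (1.19), Cldnd1 (0.47), Onecut2 (2.31) and Trim2 (1.47). It was negative for Nmrk1 (-1.86), Sik1 (-0.97), Bhlhe40 (-1.27), Snai3 (-2.72), Aifm2 (-0.81), Igkv6-15 (-2.96), Jchain (-2.40), Coq10b (-1.12), Cidec (-3.94), Pparg (-3.13), Cyp2a4 (-5.28), Etv4 (-2.46), Far2 (-3.90), Tmem86a (-1.77), Cgref1 (-2.0), Eps8 (-2.19), St3gal5 (-1.24) and Slc12a4 (-0.66).

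Without T24, 7 of these 40 differences were not called: Glul (2.51, adjusted p = 0.0558), Axin2 (2.19, 0.0616), Nkd1 (1.52, 0.104), Rhbg (1.12, 0.252), Cyp2c38 (3.06, 0.0719), Cyp2c55 (1.93, 0.122) and Cyp4a14 (2.78, 0.103). Without N11 and N12, 10 were not called: Bhlhe40, Snap29, Rhbg, Cyp2c38, Cyp2c55, Abcb11, Etv4, Jchain, Slc12a4 and Pparg, with adjusted p from 0.0533 (Bhlhe40) to 0.0723 (Cyp2c55).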

How the results depend on the processing

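The count of 2 genes called in tumours was small and depended on the tool: DESeq2 called 155 (70 higher, 85 lower), voom with quality weights 118 (45 higher, 73 lower, 66 shared with DESeq2), a fit of all 6 groups 296 (171 higher, 125 lower), and fits without the count filter or at a change of at least 2-fold 1 each. Leaving out 1 tumour gave 0 to 19 calls, and leaving out T23 and T24 together, an alternative added after the data were seen, gave 0. Without T24 there were 14 calls against 2 with all 13 tumours. The 1542 liver calls became 623 in the fit of all 6 groups, 2957 with voom and 343 at 2-fold. The 354 differences became 657 with DESeq2, 220 with all 6 groups, 1034 with voom, 218 at 2-fold, 636 without T23 and T24 and 206 without N11 and N12 (also added), and 174 to 732 without 1 tumour (732 without T24). The share of liver calls with the same direction in tumours was 56.8%, 55.7% with DESeq2 and 46.9% without T24. The cause was not tested. Log2 changes that turned sign were those of Nr1d1 (0.02 with voom, 0.07 without T20, 0.04 without T24, 0.08 without T23 and T24), Cd68 (-0.52, -0.21 and -0.40 with voom, without T24 and without both), Trem2 (-1.29, -1.36 and -1.29 likewise), Col1a1 (-1.49, -1.92 and -1.75 likewise), Tnf (-0.05 without T20) and Afp (0 without T24). With 1 tumour left out, these genes ranged from -0.27 to 0.07 (Nr1d1), 0 to 1.08 (Afp), -0.21 to 0.99 (Cd68), -1.36 to 1.32 (Trem2), -0.05 to 0.55 (Tnf), -1.92 to 1.98 (Col1a1). No paired analysis was possible because the 2 diets of a tissue share no library number, and livers and tumours were numbered separately.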
